A study of Mus musculus with 15 samples.

Results

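Glycolysis and the response to low oxygen were followed in mouse organoids, grown as a model of the cerebral cortex, through 34 listed genes, from the glucose transporters to the targets of the hypoxia-inducible factor. The genes were taken from a list of names drawn up with earlier results of these data known. Of them, 33 lie on autosomes and were kept, out of 44260 genes in the deposited table. Pdk3, an inhibitory kinase of pyruvate dehydrogenase, lies on chromosome X and was left out of all counts. Its B6 values were 90, 69 and 75, and its Spret value was 0 in all 3 libraries. Of the summed value of chromosome X, 0.0941% ± 0.00595 came from Spret (SD, n = 3). X-linked genes therefore had almost no Spret value to compare. Whether that copy was absent or silent was not tested.

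The organoids were grown from SpretB6 lines, hybrid cells that carry a genome copy of the laboratory strain C57Bl/6J (B6) and a copy of Mus spretus (Spret). The 3 libraries are titled C1, C2 and C3 and are called library 1, 2 and 3 here. The table's name gives day 12 of organoid culture, the growth protocol names epiblast stem cells as the source, and no oxygen treatment is given in the labels. The labels do not state that the 3 came from separate cultures. A p-value here therefore reflects only how these libraries vary, and that variation may be technical. The spread behind it was drawn more from the other genes of the table than from the gene's own values. Each group is 1 allele read within the same 3 libraries, and with lines of 1 kind only, effects of strain and of parent cannot be told apart. Another 12 samples of induced pluripotent stem cells were not analysed here.

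Glycolysis splits glucose into pyruvate in the cytosol. Pyruvate then goes to lactate or into the mitochondrion, and neural progenitors are known for a high rate of glycolysis that falls as neurons mature. When oxygen is low, prolyl hydroxylases no longer mark the alpha subunit of the hypoxia-inducible factor for destruction, and the factor switches on genes of glucose uptake, glycolysis, lactate production, vessel growth and mitochondrial turnover. Most glycolytic steps can be served by several isozymes from different genes.

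The factor binds a short core in the promoters of many of these genes, written ACGTG, or with G as its first letter. The promoters below are shown because their genes are the 4 called members with the largest allelic ratios whose window, the 250 bases before the most upstream RefSeq start, holds no annotated exon. They are of the B6 reference, build GRCm38.p6, written 5′ to 3′ on the gene's strand. The windows are chr7:46845554-46845803 for Ldha, chr19:41911621-41911870 for Pgam1, chr4:150236458-150236707 for Eno1 and chr2:71872974-71873223 for Pdk1, all on the plus strand. Capitals mark the core in either spelling, ACGTG or the form GCGTG, on either strand.
Ldha: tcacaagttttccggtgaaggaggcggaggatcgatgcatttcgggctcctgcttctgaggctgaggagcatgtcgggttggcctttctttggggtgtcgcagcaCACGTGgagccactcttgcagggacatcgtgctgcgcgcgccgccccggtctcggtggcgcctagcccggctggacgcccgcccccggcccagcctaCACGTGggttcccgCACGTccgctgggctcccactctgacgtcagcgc
Pgam1: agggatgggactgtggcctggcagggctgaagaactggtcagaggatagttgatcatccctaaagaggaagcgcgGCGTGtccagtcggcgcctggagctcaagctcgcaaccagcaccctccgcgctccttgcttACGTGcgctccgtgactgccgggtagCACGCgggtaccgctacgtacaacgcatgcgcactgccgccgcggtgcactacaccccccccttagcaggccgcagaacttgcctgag
Eno1: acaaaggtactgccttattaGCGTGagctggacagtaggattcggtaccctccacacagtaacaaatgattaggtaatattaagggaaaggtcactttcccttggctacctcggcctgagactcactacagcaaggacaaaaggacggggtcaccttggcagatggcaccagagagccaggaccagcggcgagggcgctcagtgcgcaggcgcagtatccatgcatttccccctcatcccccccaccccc
Pdk1: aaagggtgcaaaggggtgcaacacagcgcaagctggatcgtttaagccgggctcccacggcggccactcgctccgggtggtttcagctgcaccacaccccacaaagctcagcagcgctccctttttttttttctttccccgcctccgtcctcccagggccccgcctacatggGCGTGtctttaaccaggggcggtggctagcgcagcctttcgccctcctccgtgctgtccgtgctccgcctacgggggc
The palindrome CACGTG reads as the core on both strands and counts as 2 matches. By that count the Ldha window had 5 matches, the Pgam1 window 3, and the Eno1 and Pdk1 windows 1 each. The set of RefSeq promoters used here held a full-length sequence for 30 of the 33 members, all but Slc2a3, Epas1 and Bnip3l. Of these, 23 (76.7%) had at least 1 match, against 39.0% of 25748 autosomal promoters and 56.2% of the 10641 whose genes were tested here. The median GC content was 63.4%, 52.4% and 60.0% in the same order, and every core contains a CG pair. Matches were found in 5 of 6 members called higher from Spret, in 5 of 7 called higher from B6 and in 12 of 16 not called, and the untested Ankrd37 had some too. A match is a description of these letters, and the Spret letters were not analysed here.

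Values are allele-specific normalised read numbers as deposited, with 1 B6 and 1 Spret value per gene and library. B6 columns summed to between 2413876 and 3027078 and Spret columns to between 2088788 and 2639912. Estimated scale factors of 1.156, 1.276 and 0.672 put these at about 1.64M to 4.51M reads per column, with most reads in library 3. The allelic ratio is log2(Spret value + 1) minus log2(B6 value + 1), so a value above 0 means more RNA from the Spret allele. A gene is called when the adjusted p of limma, a linear model fitted across all genes with library as a block, is under 0.05. The 15452 autosomal genes that averaged 10 or more over the allele columns give the background. Of them 28.4% were called, 7.78% higher from Spret and 20.7% higher from B6, and the median ratio was -0.13. With X-linked and unplaced genes included, 30.4% of 15985 were called. Summed neuronal markers stood between 27027 and 28188 in the 3 libraries, progenitor markers between 5508 and 7186 and pluripotency markers between 128 and 216, with none of these at 0. The labels name the sample tissue as epiblast stem cells. Markers of cortical hem and choroid plexus went from 3787 in library 1 to 1072 and 705 in libraries 2 and 3. In bulk RNA, fewer cells of a type and less RNA per cell cannot be told apart.

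The 6 listed genes of lower glycolysis, Tpi1, Gapdh, Pgam1, Eno1, Eno2 and Pkm, were all called, and the difference was over 2-fold at Tpi1 and Ldha. Neither listed gene of glucose uptake was called. Of the 33 autosomal members, 32 were abundant enough to test and 13 were called (40.6%), 6 higher from Spret and 7 higher from B6. All 13 were among the 25 members with a mean summed value of at least 200, of which they make 52.0%. Among all autosomal tested genes at that level 39.7% were called. By role the calls were 0 of 2 in glucose uptake, 2 of 10 in upper glycolysis, 6 of 6 in lower glycolysis, 2 of 5 in pyruvate and lactate handling, 1 of 4 in oxygen sensing and 2 of 5 among hypoxia targets. The median ratio over the tested members was -0.0048. The sign was the same in 3 of 3 libraries toward Spret in 9 members and toward B6 in 11, where 17.2% and 36.8% of autosomal tested genes were so. When each library's ratios were centred on the autosomal median, which removed shifts of -0.13, -0.13 and -0.12, 8 members were called higher from Spret and 4 higher from B6. The autosomal shares called were then 13.3% and 13.5%. The centred ratio of Tpi1 was -0.90, under 2-fold, while those of Pgam1 and Ldha, 1.05 and -1.05, were over 2-fold. Of the 13 calls, 9 ended with no filter on low values, 10 without limma's trend and 10 with no replicate block. The calls of Pfkp, Aldoc, Gapdh, Eno2, Pdk1, Hif1a, Ddit4 and P4ha1 ended under each of these 3 settings.

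**Figure D1:**
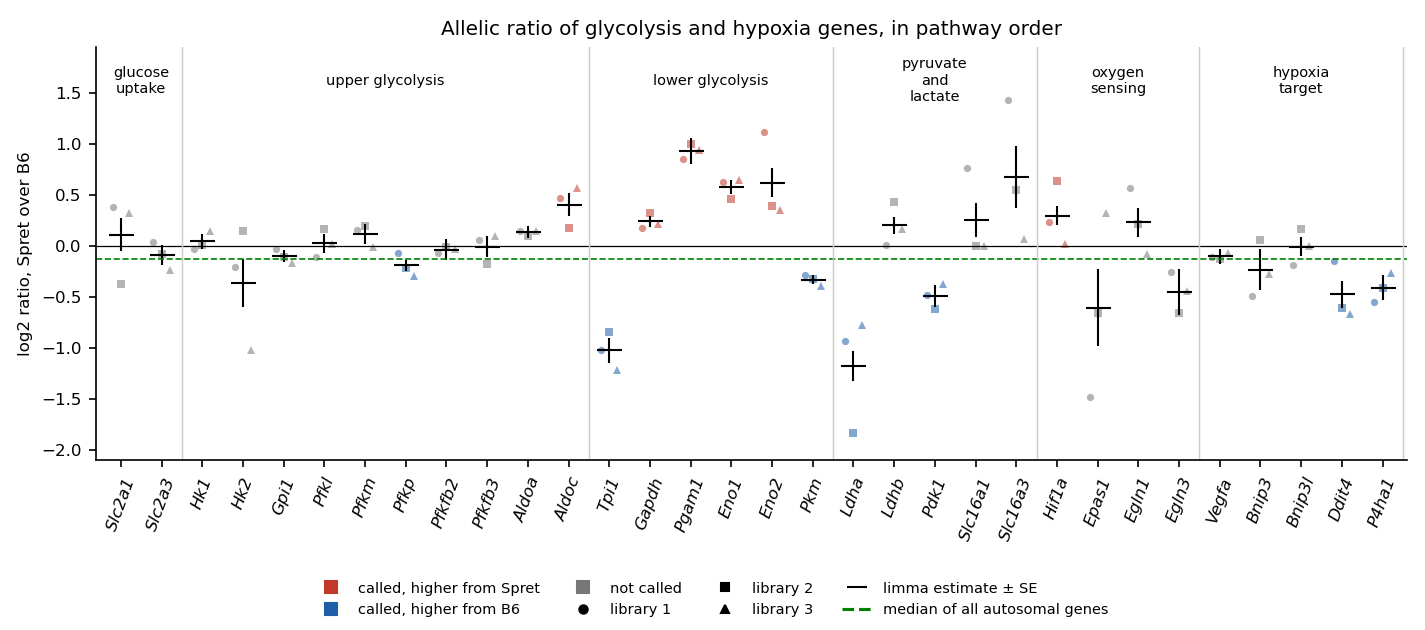
The vertical axis gives the log2 ratio of Spret over B6 for the 32 tested autosomal members, in pathway order from left to right. Small symbols are single libraries, black bars are limma estimates ± SE, the dashed line is the autosomal median of -0.13, and colour gives the call. All 6 listed genes of lower glycolysis are coloured, 4 above 0 and 2 below it, while the transporters at the left are grey.

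Glucose uptake showed no call. Slc2a1, the widespread glucose transporter, read 75, 96 and 102 from B6 and 98, 74 and 128 from Spret, a ratio of 0.11 ± 0.16 (SE) whose sign differed between libraries. Slc2a3, the high-affinity transporter of neurons, read 196, 180 and 304 from B6 and 201, 171 and 259 from Spret. Its ratio was -0.09 (95% interval -0.30 to 0.12). In both transporters the ranges of the alleles overlapped.

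In upper glycolysis 8 of 10 genes were not called, and their ratios lay between -0.36 for Hk2, the inducible hexokinase, and 0.13 for Aldoa, the main aldolase. Hk1, the hexokinase of brain, stood at 0.05 ± 0.07 (SE) and Gpi1, which isomerises glucose phosphate, at -0.10 ± 0.06. Of the subunits of phosphofructokinase, the committing enzyme, Pfkl had a ratio of 0.03 and Pfkm of 0.12. Pfkfb2 and Pfkfb3, which set the level of the activator of phosphofructokinase, had ratios of -0.03 and -0.0049. Hk2 differed most between libraries, at -0.20, 0.15 and -1.02 with summed values of only 92 to 99.

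Pfkp, the most abundant phosphofructokinase subunit here, was called higher from B6. It read 1188, 902 and 2157 from B6 and 1134, 778 and 1766 from Spret, so that each library leaned to B6 while the allele ranges overlapped. The ratio was -0.19 ± 0.05 (SE, limma adjusted p = 0.0143). The call ended when ratios were centred, at a ratio of -0.07 (adjusted p = 0.386), and without library 2 or 3 (adjusted p = 0.0672 and 0.162). Pitrm1, a gene on the opposite strand that covers 5.58% of the Pfkp exon bases, read 149 to 297 per column. It was called higher from B6 at -0.33. Whether its reads are also counted for Pfkp was not tested.

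The aldolases, which split the sugar into trioses, had positive ratios. Aldoc, the aldolase of brain, read 144, 167 and 136 from B6 and 200, 189 and 202 from Spret, with every Spret value above every B6 value. Its ratio was 0.41 ± 0.11 (SE, limma adjusted p = 0.0127), and the call ended without library 1 or 3 (adjusted p = 0.119 and 0.122). Among autosomal tested genes 6.96% had all Spret values above all B6 values and 16.8% the reverse. Aldoa read 663, 561 and 767 from B6 and 737, 602 and 851 from Spret. It was higher from Spret in 3 of 3 libraries by a narrow margin, a ratio of 0.13 ± 0.06 that was not called (adjusted p = 0.0938) and was called after centring at 0.26 (adjusted p = 0.0036).

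The listed genes of lower glycolysis were not all called in the same direction. Tpi1 and Pkm were called higher from B6, and Gapdh, Pgam1, Eno1 and Eno2 higher from Spret. Of the tested isozymes of these enzymes outside the list, Gapdhs was called higher from B6, and 4 were not called, with ratios of 0.95 ± 0.45 (SE) for Pgam2, -0.30 ± 0.33 for Eno3, -0.89 ± 0.36 for Eno4 and 0.17 ± 0.32 for Pklr. Tpi1, which interconverts the triose phosphates, read 242, 160 and 212 from B6 and 119, 89 and 91 from Spret. The B6 allele gave the larger share in each library, and the allele ranges did not overlap. The ratio was -1.02 ± 0.12 (SE, limma adjusted p = 1e-05), or 2.03-fold. Among autosomal tested genes 7.34% were called with a difference of at least 2-fold, and 2 members were, Tpi1 and Ldha. Both counts are of ratios that were not centred.

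Gapdh, which oxidises the triose phosphate and is often used as a reference gene, read 1232, 900 and 1088 from B6 and 1393, 1129 and 1266 from Spret. Spret was higher within each library although the ranges overlapped, because the libraries differed in level. The ratio was 0.24 ± 0.05 (SE, limma adjusted p = 0.00234), or 1.18-fold. The call ended with no filter on low values (adjusted p = 0.0984), without the trend (0.205) and with no replicate block (0.454). A search of annotated transcripts found 78 other genes with at least 95% identity to Gapdh over at least 200 bases. The 39 of them in the table summed to 40.7 from B6 and 34.0 from Spret, 3.20% of the Gapdh value, and how shared reads were placed is not stated.

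Pgam1, the phosphoglycerate mutase of brain, gave the largest ratio toward Spret of any tested member. It read 81, 66 and 93 from B6 and 147, 133 and 179 from Spret. The lowest Spret value was above the highest B6 value, and the ratio differed little between libraries, at 0.85, 1.00 and 0.94. The limma estimate was 0.93 ± 0.13 (SE, adjusted p = 5.67e-05), or 1.91-fold.

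Both enolases, which make phosphoenolpyruvate, were called higher from Spret. Eno1, the enolase of most tissues, read 438, 375 and 489 from B6 and 676, 518 and 765 from Spret, with no overlap. Its ratio was 0.58 ± 0.07 (SE, limma adjusted p = 9.82e-06), and the call ended with no replicate block (adjusted p = 0.0824). Eno2, the enolase of neurons, read 89, 98 and 204 from B6 and 194, 129 and 261 from Spret. Its ranges overlapped, and library 1 stood apart with a ratio of 1.12 against 0.39 and 0.35. The estimate of 0.62 ± 0.14 (adjusted p = 0.00411) fell to 0.37 without library 1 and was then not called (adjusted p = 0.0886). Library 1 also had the highest sum of hem and choroid plexus markers, and the part of those cells in the Eno2 ratio was not tested.

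Pkm, the pyruvate kinase that closes the pathway and the member of highest summed value, was called higher from B6. It read 1967, 1672 and 2374 from B6 and 1616, 1341 and 1812 from Spret, lower from Spret in each library with overlapping ranges. The ratio was -0.33 ± 0.04 (SE, limma adjusted p = 3.97e-05), or 1.26-fold. The call ended without the trend (adjusted p = 0.117) and with no replicate block (0.33). The transcript model Gm49759 covers 15.3% of the Pkm exon bases on the same strand and read 129, 98 and 159 from B6 and 114, 70 and 130 from Spret. Whether its reads are also counted for Pkm was not tested.

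**Figure D2:**
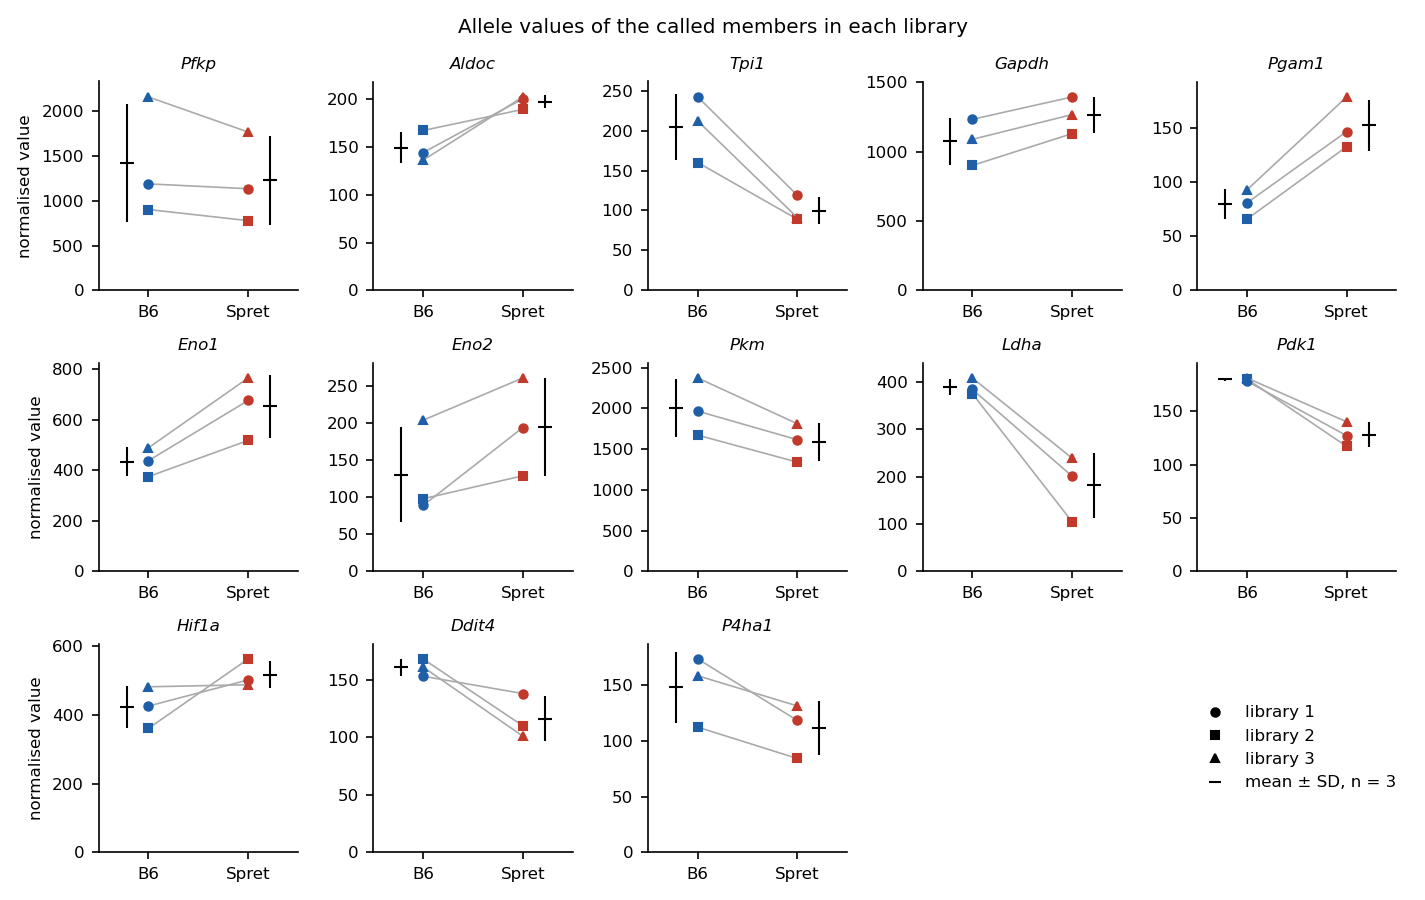
Each panel gives the normalised values of 1 of the 13 called members, with B6 at the left and Spret at the right, on an axis that starts at 0. Symbols joined by a line are the alleles of the same library, and black bars are mean ± SD over 3 libraries. In Tpi1, Ldha, Pgam1 and Eno1 the alleles do not overlap, while in Pfkp, Gapdh, Pkm and Eno2 they overlap although the lines slope the same way.

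Summed over the 14 listed glycolytic enzyme genes, called or not, the alleles came close to balance. Pgk1, a glycolysis gene on chromosome X, is not in the sum. Spret gave 50.5%, 50.1% and 48.9% of the values in libraries 1, 2 and 3, a mean of 49.8% ± 0.800 (SD, n = 3), against 47.7% ± 0.137 over all autosomal genes. The share of the enzyme genes was above the autosomal share in each library, the latter at 47.7%, 47.7% and 47.9%. Pkm, Pfkp and Gapdh weigh most in the sum of the enzyme genes. Without them the Spret share of the other 11 genes was 52.5% ± 0.340.

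At the end of the pathway the 2 subunits of lactate dehydrogenase went apart. Ldha, whose subunit favours lactate production and which is a classic target of the hypoxia-inducible factor, read 384, 375 and 408 from B6 and 201, 105 and 239 from Spret. The B6 values were close to each other, the Spret values were all lower, and library 2 was lowest, with ratios of -0.93, -1.83 and -0.77. The limma estimate was -1.18 ± 0.15 (SE, adjusted p = 2.6e-05), or 2.26-fold, the largest ratio of the tested members. The call ended with no filter on low values (adjusted p = 0.134) and without the trend (0.0555). Ldhb, whose subunit favours lactate use, read 468, 331 and 381 from B6 and 473, 447 and 429 from Spret, a ratio of 0.21 ± 0.08 that was not called (adjusted p = 0.0748). After centring it was called at 0.33 (adjusted p = 0.0075).

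The 2 genes can be set side by side per kb of their main annotated transcript, a scale that still depends on how many variants let reads be assigned to an allele. On it Ldha made up 42.5% ± 4.17 of the pair's value within the B6 columns and 22.6% ± 7.27 within the Spret columns (SD, n = 3). The Ldha ratio was below the Ldhb ratio in 3 of 3 libraries, by 0.95, 2.26 and 0.94 on the log2 scale. Hk1 made up 92.4% ± 0.179 of the hexokinase pair in B6 and 93.8% ± 2.43 in Spret, and Eno1 82.7% ± 5.33 and 82.6% ± 2.28 of the enolase pair. Aldoa made up 88.9% ± 2.60 and 87.1% ± 1.57 of the aldolase pair. Among the pairs other than Ldha and Ldhb, the shares lay furthest apart for Egln1 in its pair with Egln3, at 64.3% ± 0.906 in B6 and 74.3% ± 4.62 in Spret. Next came Slc16a1 in its pair with Slc16a3, at 81.7% ± 1.30 and 76.6% ± 2.68. These shares are a description with no test.

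**Figure D3:**
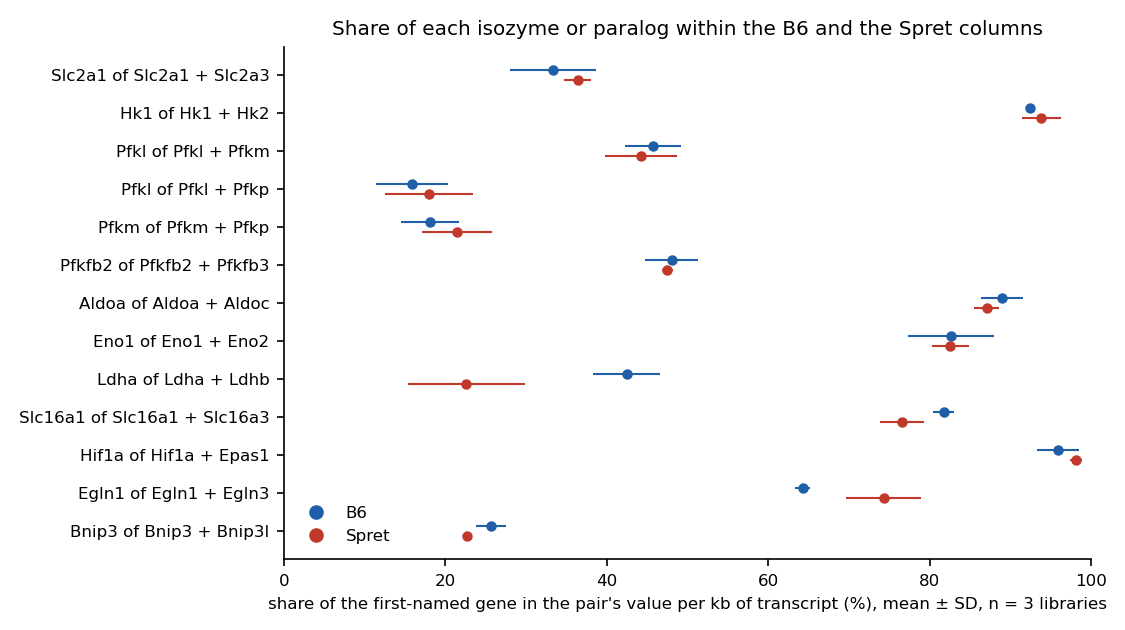
The horizontal axis gives, for each pair of paralogs, the share of the first-named gene in the pair's value per kb of transcript, as mean ± SD over 3 libraries, within the B6 and within the Spret columns. Ldha moves from 42.5% in B6 to 22.6% in Spret, and Hk1 and Eno1 stay near 93% and 83% in both.

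Pdk1, a kinase that blocks the entry of pyruvate into the mitochondrion and a known hypoxia target, was called higher from B6. It read 178, 180 and 181 from B6 and 127, 117 and 140 from Spret, with no overlap and little spread in B6. The ratio was -0.49 ± 0.11 (SE, limma adjusted p = 0.00386). The call ended with no filter on low values (adjusted p = 0.0896), without the trend (0.0657) and with no replicate block (0.105). The lactate and pyruvate transporters were not called. Slc16a1 had a ratio of 0.25 ± 0.17 that came from library 1 alone, at 0.76 against 0 in both others. Slc16a3 was low, with 51.7 ± 9.24 summed over alleles (SD, n = 3), and had a ratio of 0.68 ± 0.30 (limma adjusted p = 0.106). Its highest ratio, 1.43, was also in library 1.

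Among the genes of oxygen sensing, Hif1a was the only call of 4. Hif1a, the alpha subunit of the hypoxia-inducible factor, read 426, 361 and 482 from B6 and 502, 563 and 488 from Spret. The lowest Spret value was only slightly above the highest B6 value, and the ratios of 0.24, 0.64 and 0.02 differed between libraries. The limma estimate was 0.30 ± 0.10 (SE, adjusted p = 0.0288). Without library 2 it fell to 0.13 (adjusted p = 0.32), and without library 1 the call also ended (adjusted p = 0.147). Gm15283, an antisense gene that covers 5.60% of the Hif1a exon bases, read 83 to 120 per column, and whether counting used strand is not stated.

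Epas1, the other oxygen-regulated alpha subunit, was near the limit of the test, with 31.7 ± 15.5 summed over alleles and a ratio of -0.60 ± 0.38. Egln1, the main prolyl hydroxylase of the factor, read 90, 106 and 130 from B6 and 134, 123 and 123 from Spret. Its ratio was 0.23 ± 0.14 (limma adjusted p = 0.232), highest in library 1 at 0.57 and below 0 in library 3. The part of the library 1 cell makeup in these ratios was not tested. Egln3, a hydroxylase that the factor itself induces, leaned to B6 in 3 of 3 libraries at -0.45 ± 0.22, which was not called (adjusted p = 0.143).

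Of the 5 tested members that are hypoxia targets outside glycolysis, Ddit4 and P4ha1 were called, both higher from B6. Ddit4, an inhibitor of mTOR signalling, read 153, 168 and 161 from B6 and 138, 110 and 101 from Spret. All Spret values lay below all B6 values, by least in library 1. The ratio was -0.47 ± 0.13 (SE, limma adjusted p = 0.0123), and the call ended when ratios were centred (adjusted p = 0.0546) and without library 2 or 3 (adjusted p = 0.0713 and 0.119).

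P4ha1, the catalytic subunit of collagen prolyl hydroxylase, read 173, 112 and 158 from B6 and 118, 84 and 131 from Spret. It was lower from Spret in each library with overlapping ranges. Its ratio was -0.41 ± 0.12 (SE, limma adjusted p = 0.0202). That call ended when ratios were centred (adjusted p = 0.0951) and without library 1 or 3 (adjusted p = 0.168 and 0.0528).

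Vegfa, the vessel growth factor, read 362, 251 and 476 from B6 and 336, 230 and 454 from Spret. The 2 alleles followed each other closely across libraries, and the ratio was -0.10 (95% interval -0.26 to 0.06). Bnip3 and Bnip3l, receptors that mark mitochondria for removal, had ratios of -0.23 ± 0.20 and -0.0047 ± 0.09 and were not called. Ankrd37, an ankyrin repeat protein induced by low oxygen, was not tested, with 12, 8 and 13 from B6 and 8, 1 and 10 from Spret.

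Members lie on many chromosomes, but 3 glycolytic genes sit together on chromosome 6 (mm10). Eno2 spans 124760053 to 124769673, Tpi1 spans 124810586 to 124814296 and Gapdh spans 125161715 to 125166467, all on the minus strand. Eno2 and Tpi1 are 40.9 kb apart with 1 tested gene between them, and their ratios were 0.62 and -1.02. Gapdh lies 347.4 kb from Tpi1, with a ratio of 0.24. Of the 38 tested genes with a midpoint within 500 kb of the Tpi1 start, these 3 included, 6 were called higher from Spret and 10 higher from B6, with a median ratio of -0.02. Within 100 kb of Tpi1, 5 of 16 tested neighbours were called higher from Spret and 0 higher from B6. Within 100 kb of Gapdh, 0 of 10 were called higher from Spret and 6 higher from B6. Among all autosomal tested genes 7.78% were called higher from Spret and 20.7% higher from B6. These neighbour counts, and those of the 500 kb window, hold genes that lie within other genes, so the calls are not all separate. Scarna10 and Gm28967, with the same ratio of -0.56, lie within Ncapd2, and Gm23547 lies within Phb2. Tpi1 and Gapdh each had a call that none of its tested neighbours within 100 kb had. The same was true of Pgam1, Eno1, Ldha, Hif1a and Ddit4, and not of the other called members. Spsb2, whose exons overlap Tpi1 by 34 bases, had a ratio of -0.57 ± 0.31 that was not called, and Usp5, on its other side, stood at -0.13. Near Gapdh, Iffo1 stood at 0.03 and Ncapd2 was called higher from B6 at -0.64. These 4 neighbours were picked after their values were seen. A pair on chromosome 10, P4ha1 and Ddit4, lies 576.4 kb apart with 3 tested genes between them, and both were higher from B6.

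**Figure D4:**
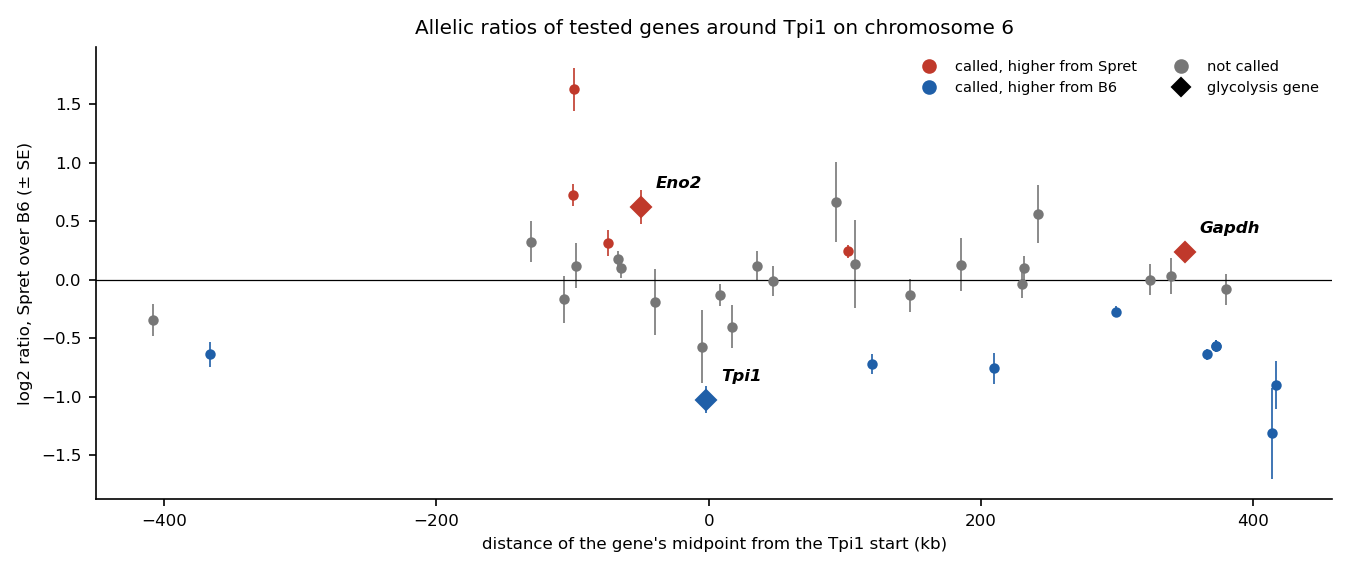
Each symbol is a tested gene within 500 kb of the Tpi1 start, placed by the distance of its midpoint in kb, with the log2 ratio of Spret over B6 ± SE on the vertical axis. Diamonds are the 3 glycolysis genes. Tpi1 at -1.02 lies between Eno2 at 0.62 and Gapdh at 0.24, and calls in both directions occur along the window.

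Other genes of glycolysis and pyruvate use, from a list of 57, gave 42 tested autosomal genes. Of these, 2 were called higher from Spret and 10 higher from B6 (28.6% in all), with a median ratio of -0.18. The 4 called genes with the largest ratios were all higher from B6. Gapdhs, the sperm form of the dehydrogenase, was low, at 34, 19 and 32 from B6 and 10, 6 and 17 from Spret, a ratio of -1.35 ± 0.32 (SE, limma adjusted p = 0.00482). Pgm2, a phosphoglucomutase, had a ratio of -0.74 and Tkt, the transketolase of the pentose phosphate branch, a ratio of -0.68 ± 0.06. Pdhb, the beta subunit of pyruvate dehydrogenase, read 173, 145 and 210 from B6 and 103, 89 and 138 from Spret, a ratio of -0.68 ± 0.11. Pdk1, a kinase of the same complex, had a ratio of -0.49 in these libraries.

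Other hypoxia response genes, from a list of 54, gave 45 tested autosomal genes, of which 3 were called higher from Spret and 10 higher from B6 (28.9% in all). The median ratio was -0.08. The 3 called higher from Spret were Car12, a carbonic anhydrase, at 0.61 ± 0.20 (SE), Cdkn1a, an inhibitor of the cell cycle, at 0.46 ± 0.16 and Wsb1, part of a ubiquitin ligase, at 0.37 ± 0.07. They are named outside the rule, after their values were seen. The largest ratios among the called genes were those of the metal-binding proteins Mt1 and Mt2, at -1.17 ± 0.10 and -1.02 ± 0.15 (SE), of Insig2, a regulator of sterol synthesis, at -0.90 ± 0.27, and of Arnt at -0.88 ± 0.14. Arnt, the partner subunit with which the hypoxia-inducible factor binds DNA, read 141, 105 and 164 from B6 and 69, 59 and 94 from Spret, with no overlap (limma adjusted p = 0.000178). The B6 share of Arnt was thus the larger one in each library, while that of its partner Hif1a was the smaller one in each. In library 3 the Hif1a values were close, at 482 from B6 and 488 from Spret. Arnt2, of the same list and named outside the rule, was also called higher from B6, at -0.54 ± 0.12 (SE). Among 14 tested genes of the integrated stress response, 3 were called, all higher from B6 (21.4%).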

How the data were processed

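Libraries were made from total RNA after ribosomal RNA depletion, per the labels' protocols, with 80M reads planned per sample. The deposited values are treated as a score, since the table's name calls them normalised while they are whole numbers. They count reads assigned to either allele of a gene. The submitters' processing notes name mm10. How reads were aligned, assigned to alleles, counted (with or without strand) and normalised was not given in the sources used here. An assignment that favours the B6 reference would lower the ratios.

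The scale factors were fitted by likelihood to which whole numbers held many or few genes. Up to 200, library 1 had 27 empty whole numbers, library 2 had 43 and library 3 had 0. No 2 columns were identical, and pairs of libraries differed by a chi-square per degree of freedom of 2.75 to 6.01. Positions were from GENCODE M21 (GRCm38, the assembly of mm10) for 42607 genes and RefSeq for 899, which leaves 754. Genes with a mean of at least 10 over the 6 allele columns, 15985 in all, were tested by limma 3.58.1 in R 4.3.3 on log2(value + 1), in a model of allele plus library with limma's trend option. Tests were two-sided with Benjamini-Hochberg adjustment over all tested genes. The model left 2 residual degrees of freedom, to which the prior added 12.3. Most of the weight in a gene's variance estimate thus came from other genes. Library is the block, since a library's columns come from 1 RNA sample. The procedure was tested on simulated data. Near copies were searched with blastn 2.17.0.

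Members and gene lists were chosen with earlier results of these data known. Called members and, per role, the uncalled member of highest summed value are given in full, and of the 2 lists of other genes the 4 called genes of largest ratio each. Alternatives were other pseudocounts, filters, scaling, terms and subsets of libraries.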

Additional observations from a re-analysis of the deposited data

How the results depend on the processing

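Each called member had ratios of the same sign in every library. Of the 12 alternatives only centring could therefore have changed a direction, and it changed none. Of the 13 called members, Tpi1 and Pgam1 were called under each alternative, and 7 were called whichever library was left out (Tpi1, Gapdh, Pgam1, Eno1, Pkm, Ldha and Pdk1). Pseudocounts of 0.5 and 5, a mean of at least 50, a mean of at least 5 in both alleles and a fit of autosomal genes alone changed no member's call among those tested. Counts are given below as higher from Spret and higher from B6, where the main counts were 6 and 7 for members, 2 and 10 for the other glycolysis genes, 3 and 10 for the other hypoxia genes and 1202 and 3191 for all autosomal genes. With no filter on low values they were 2 and 2, 0 and 2, 0 and 3, and 180 and 541. Without limma's trend they were 2 and 1, 0 and 4, 0 and 6, and 463 and 1310. With no replicate block, that is without the pairing of alleles by library, they were 1 and 2, 0 and 1, 0 and 4, and 261 and 825. Centred ratios gave 8 and 4 members, 7 and 7, 4 and 8, and 2048 and 2089. Leaving out 1 library gave 3 to 5 and 4 to 6 members, 0 to 2 and 4 to 10 other glycolysis genes, 1 to 2 and 7 to 9 other hypoxia genes, and 575 to 984 and 1644 to 2562 autosomal genes. The lowest counts toward Spret among members came without library 1 (3) and the lowest toward B6 without library 3 (4). The cause was not tested. The precision for members with low values, such as Ankrd37, Epas1 and Slc16a3, is limited by the few allele-assigned reads behind them.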

Other observations

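Summed over both alleles, most members were highest in library 3. Of the 32 tested members, 21 were highest there (65.6%), against 59.7% of all autosomal tested genes, and 3 were highest in library 2. The ratio of the highest to the lowest library had a median of 1.36 over members and 1.41 over all autosomal tested genes. Pfkp spread more, at 2322, 1680 and 3923, as did Eno2 at 283, 227 and 465 and Vegfa at 698, 481 and 930. Epas1 went the other way, at 32, 47 and 16. Hif1a, Pfkfb3, Aldoc and Hk2 were nearly level, with Hif1a at 928, 924 and 970. Genes of the hypoxia target group summed to 1992, 1600 and 2260 and genes of the integrated stress response to 6762, 5712 and 8214. The totals of the columns had the same order of libraries, at 2701847, 2413876 and 3027078 for B6 and 2337998, 2088788 and 2639912 for Spret. The group sums are not scaled to these totals. Endothelial and blood markers, cell types in which Epas1 is high, summed to 210, 268 and 117 in libraries 1, 2 and 3, and their part in the level of Epas1 was not tested.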
